A study of Arabidopsis thaliana with 10 samples.

Results

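The genes described here are the Aux/IAA and GH3 families of Arabidopsis thaliana, taken by locus identifier: all 29 Aux/IAA loci numbered between IAA1 and IAA34, and 7 GH3 loci, GH3.1 to GH3.6 and GH3.17. All 36 were found among the 33557 loci listed for each library, and all 36 carried the matching name in RefSeq. Locus identifiers of those described most are AT3G15540 (IAA19), AT1G52830 (IAA6), AT1G04240 (IAA3), AT2G46990 (IAA20), AT4G14550 (IAA14), AT1G04250 (IAA17), AT3G23050 (IAA7), AT1G15050 (IAA34), AT4G37390 (GH3.2) and AT2G23170 (GH3.3). Of these, 31 reached 1 FPKM (fragments scaled to transcript length and library depth) in at least 2 libraries and were tested. IAA5, IAA15, IAA31, GH3.1 and GH3.4 stayed below that level and are described by their values alone.

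The RNA came from whole seedlings aged 4 days, all labelled with the ecotype Columbia (Col-0) and raised in blue light at 1 µmol m-2 s-1 with no dark period. There were 5 genotypes with 2 biological replicates each: cry2-1, a mutant of the blue light receptor gene CRY2; CRY2oe, which overexpresses CRY2; UBP13oe, which overexpresses the deubiquitinase gene UBP13; ubp12ubp13, labelled as the double mutant of UBP12 and UBP13; and wild type (WT). No genotype received another treatment. The labels do not give the promoter or the parent line of either overexpressor, the number of lines behind a library, or the alleles of ubp12ubp13.

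CRY2 was at 0 and 0.0187 FPKM in cry2-1 and at 3923 and 3808 FPKM in CRY2oe, against 109.8 and 120.0 FPKM in WT. The neighbouring loci AT1G04410 and AT1G04420 were at 0 in both cry2-1 libraries and at 0.114 FPKM or less in both CRY2oe libraries, against 30.3 FPKM or more in WT, so the CRY2oe libraries share this feature with cry2-1. UBP13 was at 69.0 and 66.1 FPKM in UBP13oe, against 27.1 and 28.3 FPKM in WT. In the libraries labelled ubp12ubp13, UBP13 was at 24.2 and 23.6 FPKM, and UBP12 was at 397 FPKM in replicate 1, against 35.0 and 34.8 FPKM in WT, with a failed estimate in replicate 2. Reads over a disrupted locus do not measure intact transcript, so these values do not check that label. An estimated 15790000 to 30970000 fragments lay behind a library, and 18557 to 19206 genes reached 1 FPKM in each.

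Aux/IAA proteins are short-lived repressors of auxin response. They bind ARF transcription factors at auxin-responsive genes and are degraded when auxin brings them to TIR1/AFB receptors. Most GH3 enzymes in this set join auxin to amino acids and so lower the pool of free hormone. Many genes of both families are themselves induced by auxin, and in seedlings several of them follow light through PIF transcription factors, which cryptochromes restrain.

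The bases before the gene start are shown for 5 members with called changes. All 5 hold motifs marked below, while IAA14 and IAA17, also called, hold none there. The 5 are IAA19 (chr3:5263751-5264000, plus strand), IAA6 (chr1:19673653-19673902, minus strand), IAA20 (chr2:19307464-19307713, plus strand), GH3.2 (chr4:17579368-17579617, plus strand) and IAA3 (chr1:1129690-1129939, minus strand). Each is the 250 bases before the RefSeq gene start of build TAIR10.1, written 5′ to 3′ on the gene's strand. Capitals mark the auxin response elements TGTCTC and TGTCGG, the G-box CACGTG and the PIF-binding element CACATG, on either strand, so that CATGTG is CACATG on the other strand.
IAA19: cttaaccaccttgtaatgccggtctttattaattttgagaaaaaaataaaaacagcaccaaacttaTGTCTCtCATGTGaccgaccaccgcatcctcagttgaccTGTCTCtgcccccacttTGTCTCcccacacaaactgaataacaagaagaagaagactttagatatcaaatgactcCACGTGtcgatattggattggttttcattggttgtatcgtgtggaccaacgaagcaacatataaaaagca
IAA6: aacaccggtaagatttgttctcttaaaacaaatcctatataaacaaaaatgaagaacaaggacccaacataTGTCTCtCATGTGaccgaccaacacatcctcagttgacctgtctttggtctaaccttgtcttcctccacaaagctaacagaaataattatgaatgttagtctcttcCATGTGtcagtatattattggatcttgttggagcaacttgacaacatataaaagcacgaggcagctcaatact
IAA20: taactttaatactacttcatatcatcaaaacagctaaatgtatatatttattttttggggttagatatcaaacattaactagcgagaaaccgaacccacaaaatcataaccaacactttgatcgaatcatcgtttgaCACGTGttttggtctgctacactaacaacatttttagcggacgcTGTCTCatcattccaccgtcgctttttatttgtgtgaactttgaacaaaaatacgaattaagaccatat
GH3.2: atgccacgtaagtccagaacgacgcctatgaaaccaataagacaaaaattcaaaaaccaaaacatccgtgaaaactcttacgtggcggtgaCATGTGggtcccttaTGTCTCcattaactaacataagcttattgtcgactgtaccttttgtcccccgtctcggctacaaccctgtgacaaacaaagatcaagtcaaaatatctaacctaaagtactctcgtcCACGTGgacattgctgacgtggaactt
IAA3: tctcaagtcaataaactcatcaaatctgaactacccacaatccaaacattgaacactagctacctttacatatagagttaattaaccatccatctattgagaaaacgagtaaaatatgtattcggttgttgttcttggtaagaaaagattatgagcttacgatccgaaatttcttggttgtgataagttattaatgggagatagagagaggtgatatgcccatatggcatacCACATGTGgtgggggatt

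IAA19, a repressor known for its part in phototropism and hypocotyl growth, carried TGTCTC 3 times, at 184, 145 and 128 bases before the gene start, with CACATG at 177 and CACGTG at 70 bases. IAA6, its close relative, carried TGTCTC at 179 bases and CACATG at 172 and 73 bases. Both hold the run taTGTCTCtCATGTGaccgacca, which at 23 bases was the longest identical stretch found on the same strand among the 630 pairs of these upstream sequences. The next longest, cTGTCTCatcattccacc of 18 bases, was shared by IAA20 and IAA30. In IAA3 the letters CACATGTG hold CACATG on both strands, overlapping by 4 bases. GH3.2 held the auxin element TGTCTC 144 bases, CACATG 159 bases and the G-box 27 bases before its start.

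Over a window of 250 bases before and 50 bases from the gene start, TGTCTC was found in 16 of the 36 members (44.4%), against 14.2% of 27443 protein-coding genes. TGTCGG was in 6 members (16.7%), against 5.12% of all genes, CACATG in 10 members (27.8%), against 12.9%, and CACGTG in 6 members (16.7%), against 7.68%. IAA17, IAA2, IAA9 and IAA29 were among the members with none of the 4 motifs in this window. These are counts of letters and not of bound sites.

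The Aux/IAA family was dominated by a few members. IAA7, IAA16, IAA2, IAA9, IAA8 and IAA4 together made up 70.3% to 76.1% of the summed Aux/IAA level in each library. IAA7 (AXR2) and IAA16 were highest, between 227 and 460 FPKM and between 250.1 and 361 FPKM over the 10 libraries. IAA15 was at 0 to 0.119 FPKM, IAA31 at 0.116 to 0.817 FPKM and IAA5 at 0.300 to 1.19 FPKM.

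The summed level of the 29 genes was 2215 and 2198 FPKM in cry2-1, 1879 and 1780 FPKM in CRY2oe, 1867 and 1816 FPKM in UBP13oe, and 1497 and 1433 FPKM in ubp12ubp13, against 2036 and 1993 FPKM in WT. The cry2-1 libraries thus lay above both WT libraries, and those of the other 3 genotypes below both. After rescaling by the median of ratios, which brings the median of all genes close to 0, the sums were 2115 and 2119 in cry2-1, against 2183 and 2115 in WT, so cry2-1 and WT then overlapped; in CRY2oe (1905 and 1803), UBP13oe (1790 and 1707) and ubp12ubp13 (1502 and 1426) they remained below both WT libraries. With 2 libraries a genotype this sum was not tested. In whole seedlings, fewer cells that express a gene and less of its RNA per cell cannot be told apart.

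**Figure D1:**
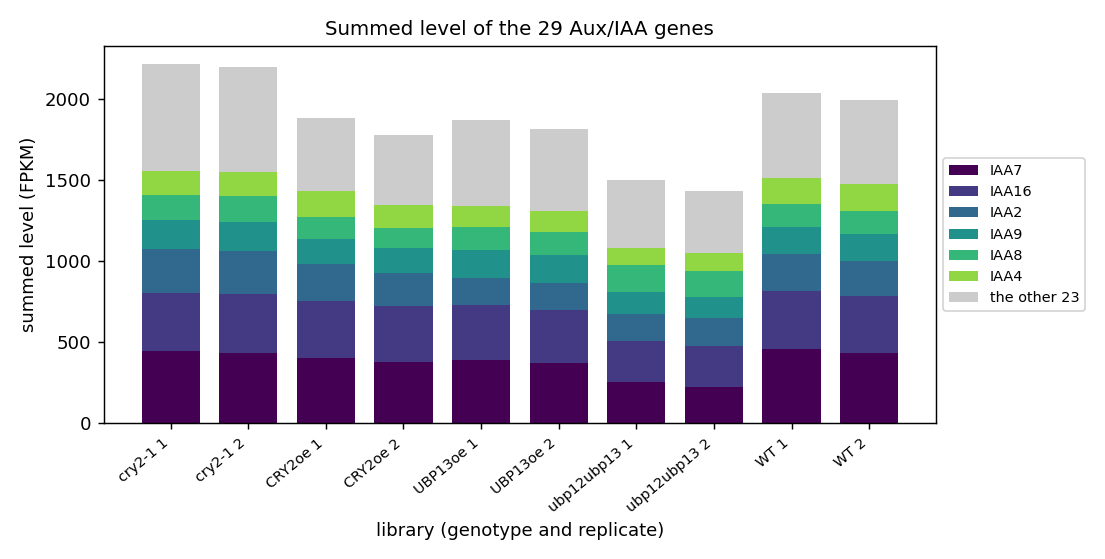
Summed level (FPKM, vertical axis) of the 29 Aux/IAA genes in each of the 10 libraries (horizontal axis), with the 6 most abundant genes as coloured segments and the other 23 in grey. On these unscaled values the total is highest in cry2-1 (not after rescaling, where it is 2115 and 2119 in cry2-1 and 2183 and 2115 in WT), at 2215 and 2198 FPKM, and lowest in ubp12ubp13, at 1497 and 1433 FPKM; most of the difference between ubp12ubp13 and WT lies in IAA7 and IAA16.

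IAA20, IAA19, IAA6 and GH3.2 were the members raised most in cry2-1. In cry2-1 against WT, 11 of the 31 tested members rose and 4 fell (limma, adjusted p under 0.05), where 31.7% of all tested genes rose and 11.8% fell. The median log2 fold change was 0.10 over the members and 0.12 over all genes, on the log2(FPKM + 1) scale used throughout, where errors are standard errors and low genes change less than on the FPKM scale. With rescaling, 5 members rose and 9 fell, against 16.5% and 20.4% of all genes.

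IAA20, a family member that lacks the degron through which auxin triggers degradation, stood furthest apart. It was at 31.8 and 34.6 FPKM in cry2-1, against 5.16 and 5.13 FPKM in WT, a rise of 6.44-fold with a log2 fold change of 2.47 ± 0.09 (limma adjusted p = 2.39e-06). All 8 libraries of the other genotypes were between 2.26 and 5.50 FPKM. IAA30, its close relative with the 18 shared bases, was at 2.68 and 2.20 FPKM in cry2-1, against 2.21 and 1.82 FPKM in WT, and was not called.

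IAA19 was at 93.0 and 99.5 FPKM in cry2-1, against 46.0 and 40.7 FPKM in WT (log2 fold change 1.13 ± 0.11, limma adjusted p = 0.000171). IAA6 was at 21.1 and 23.5 FPKM in cry2-1, against 10.2 and 9.73 FPKM in WT (log2 fold change 1.08 ± 0.09, limma adjusted p = 8.69e-05). These relatives thus rose by about the same factor, 2.22-fold and 2.23-fold, without overlap between the genotypes. IAA17 (AXR3), a repressor of root and shoot auxin responses, was at 132 and 122 FPKM in cry2-1, against 98.0 and 83.8 FPKM in WT (log2 fold change 0.48 ± 0.08, limma adjusted p = 0.00196).

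4 members fell in cry2-1. IAA14 (SLR), which restrains lateral root initiation, was at 24.6 and 23.2 FPKM in cry2-1, against 32.0 and 36.2 FPKM in WT (log2 fold change -0.49 ± 0.09, limma adjusted p = 0.0032). IAA27 was at 7.14 and 7.13 FPKM in cry2-1, against 9.51 and 10.5 FPKM in WT (log2 fold change -0.43 ± 0.08, limma adjusted p = 0.00249). IAA28 and GH3.6 also fell, by 0.37 and 0.26 on the log2 scale.

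Among the conjugating enzymes, GH3.2 was at 20.3 and 18.1 FPKM in cry2-1, against 9.09 and 8.99 FPKM in WT (2.12-fold, log2 fold change 1.01 ± 0.08, limma adjusted p = 6.89e-05). GH3.5 was at 56.0 and 57.6 FPKM in cry2-1, against 48.3 and 45.0 FPKM in WT (log2 fold change 0.28 ± 0.05, limma adjusted p = 0.00383), a call that rescaling ended (adjusted p = 0.126). The calls of IAA2, IAA3, IAA8, IAA26 and GH3.3, which also rose, ended with rescaling too. Leaving out 1 library ended the calls of IAA3 and IAA28 (without WT replicate 1 or cry2-1 replicate 1), GH3.6 (WT replicate 1 or either cry2-1 library), GH3.3 (WT replicate 2 or either cry2-1 library) and IAA26 (these 3 or either CRY2oe library).

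**Figure D2:**
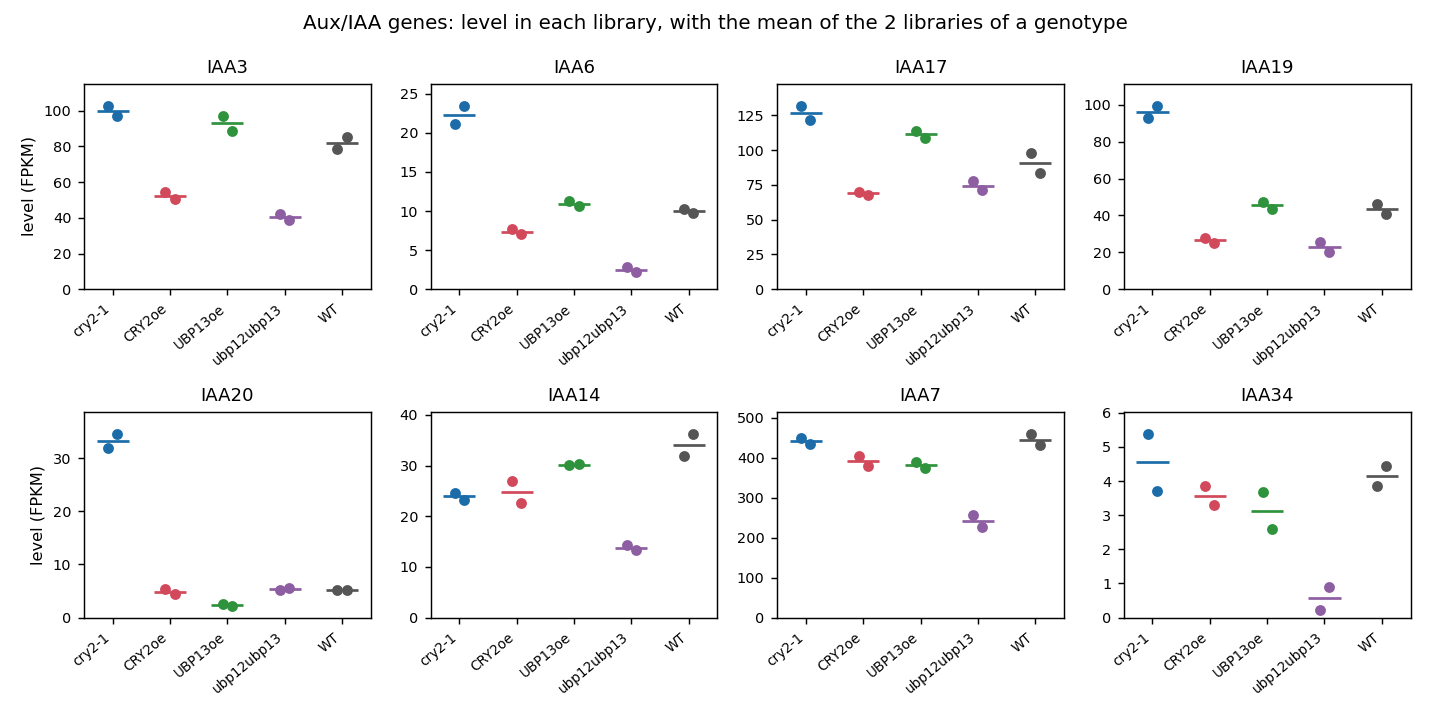
Level (FPKM, vertical axis) of 8 Aux/IAA genes by genotype; each point is 1 library and the line is the mean of 2. IAA20 is raised in cry2-1 alone (31.8 and 34.6 FPKM), IAA6 and IAA19 are highest in cry2-1 and, by their means, lowest in ubp12ubp13, and IAA34 is lowest in ubp12ubp13 (0.225 and 0.901 FPKM).

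With CRY2 in excess, no member rose and several repressors fell modestly. In CRY2oe against WT, 0 members rose and 9 of 31 fell (limma), where 16.5% of all tested genes rose and 9.63% fell. The members' median log2 fold change was -0.08, against 0.05 over all genes. After rescaling 0 rose and 12 fell, against 10.8% and 15.0% of all genes. At an unadjusted p under 0.05, 1 member was higher: IAA28, at 41.2 and 47.8 FPKM in CRY2oe, against 39.4 and 32.7 FPKM in WT.

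IAA3 (SHY2), found through suppressors of a phytochrome-deficient mutant, was at 54.3 and 50.6 FPKM in CRY2oe, against 78.8 and 85.3 FPKM in WT (log2 fold change -0.64 ± 0.07, limma adjusted p = 0.00107). IAA19 was at 27.7 and 25.3 FPKM in CRY2oe, against 46.0 and 40.7 FPKM in WT (log2 fold change -0.69 ± 0.11, limma adjusted p = 0.00455). IAA12 (BDL), which acts with ARF5 in embryonic root formation, was at 19.9 and 20.5 FPKM in CRY2oe, against 25.6 and 26.8 FPKM in WT (log2 fold change -0.36 ± 0.05, limma adjusted p = 0.00342). These 3 calls held whichever 1 library was left out, and in each the genotypes did not overlap.

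The other 6 calls were less firm. IAA6 was at 7.68 and 7.06 FPKM in CRY2oe, against 10.2 and 9.73 FPKM in WT, a log2 fold change of -0.39 ± 0.09. IAA17 was at 69.7 and 68.0 FPKM in CRY2oe, against 98.0 and 83.8 FPKM in WT, and IAA14 was at 27.0 and 22.5 FPKM in CRY2oe, against 32.0 and 36.2 FPKM in WT. IAA13 was at 36.4 and 35.5 FPKM in CRY2oe, against 43.4 and 48.7 FPKM in WT. IAA17, IAA14, IAA13, IAA9, GH3.17 and IAA6 lost their calls without CRY2oe replicate 2, where the limma adjusted p of IAA17, IAA14 and IAA13 reached 0.0633, 0.0591 and 0.0664. IAA6 also lost it without WT replicate 1, IAA9 without WT replicate 1 or CRY2oe replicate 1, and GH3.17 without either WT library.

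GH3.17, which acts on auxin with glutamate, was the only GH3 gene called in CRY2oe against WT. It was at 37.9 and 34.9 FPKM in CRY2oe, against 44.0 and 43.7 FPKM in WT (log2 fold change -0.26 ± 0.06, limma adjusted p = 0.016). GH3.2 was at 9.53 and 9.71 FPKM in CRY2oe, against 9.09 and 8.99 FPKM in WT, and IAA20 at 5.29 and 4.42 FPKM, against 5.16 and 5.13 FPKM in WT. Neither was called, with log2 fold changes of 0.08 ± 0.08 and -0.07 ± 0.09.

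GH3.2 was higher in UBP13oe than in WT, and IAA20, IAA2 and IAA4 were among the members that were lower. In UBP13oe against WT, 3 of 31 members rose and 9 fell (limma), where 35.2% of all tested genes rose and 8.74% fell. The members' median log2 fold change was -0.14, against 0.15 over all genes. After rescaling 1 rose and 15 fell, against 17.9% and 19.1% of all genes.

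GH3.2 was at 18.6 and 15.9 FPKM in UBP13oe, against 9.09 and 8.99 FPKM in WT (1.91-fold, log2 fold change 0.86 ± 0.08, limma adjusted p = 0.000218). IAA20 was at 2.58 and 2.26 FPKM in UBP13oe, against 5.16 and 5.13 FPKM in WT (log2 fold change -0.85 ± 0.09, limma adjusted p = 0.000359). GH3.2 was thus raised and IAA20 lowered, without overlap with WT. IAA6 and IAA19 were at 11.3 and 10.6 FPKM and at 47.5 and 43.6 FPKM in UBP13oe, against 10.2 and 9.73 FPKM and 46.0 and 40.7 FPKM in WT, and neither was called.

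The abundant repressors IAA2 and IAA4 fell by similar amounts. IAA2 was at 171 and 162 FPKM in UBP13oe, against 229 and 213 FPKM in WT (log2 fold change -0.41 ± 0.06, limma adjusted p = 0.00155). IAA4 was at 125 and 124 FPKM in UBP13oe, against 164 and 167 FPKM in WT (log2 fold change -0.41 ± 0.06, limma adjusted p = 0.000964). IAA29, a gene known to respond to shade, was at 23.05 and 23.2 FPKM in UBP13oe, against 34.7 and 37.8 FPKM in WT (log2 fold change -0.62 ± 0.16, limma adjusted p = 0.0149). IAA13 averaged 37.2 ± 0.60 FPKM in UBP13oe and 46.1 ± 3.73 FPKM in WT (SD, n = 2 each).

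GH3.5 was at 40.3 and 37.2 FPKM in UBP13oe, against 48.3 and 45.0 FPKM in WT (log2 fold change -0.26 ± 0.05, limma adjusted p = 0.00521), and GH3.6 was at 32.5 and 27.7 FPKM, against 39.6 and 36.2 FPKM in WT. GH3.3 and IAA7 fell as well. IAA17 and IAA12 rose, but rescaling ended the calls of IAA17 and IAA12. The calls of IAA20, IAA2, IAA4, GH3.2 and GH3.5 held whichever 1 library was left out. The other 7, IAA7, IAA12, IAA13, IAA17, IAA29, GH3.3 and GH3.6, all ended without UBP13oe replicate 2. They also ended without WT replicate 1 (IAA7, IAA12, GH3.3, GH3.6) or WT replicate 2 (IAA13, IAA17, IAA29), and IAA7, IAA17 and IAA29 without UBP13oe replicate 1.

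The largest number of changes was seen in ubp12ubp13. Against WT, 17 of 31 members fell and 5 rose (limma), where 22.2% of all tested genes fell and 34.6% rose. The members' median log2 fold change was -0.33, against 0.09 over all genes. After rescaling 21 fell and 4 rose, against 28.1% and 27.9% of all genes.

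IAA6 was at 2.79 and 2.24 FPKM in ubp12ubp13, against 10.2 and 9.73 FPKM in WT (0.252 times WT, log2 fold change -1.65 ± 0.09, limma adjusted p = 3.48e-06). IAA14 was at 14.3 and 13.3 FPKM in ubp12ubp13, against 32.0 and 36.2 FPKM in WT (log2 fold change -1.25 ± 0.09, limma adjusted p = 1.28e-05). IAA3 was at 42.3 and 38.6 FPKM in ubp12ubp13, against 78.8 and 85.3 FPKM in WT (log2 fold change -1.0 ± 0.07, limma adjusted p = 1.09e-05). In all 3 both mutant libraries lay well below both WT libraries. IAA19 was at 25.7 and 20.04 FPKM in ubp12ubp13, against 46.0 and 40.7 FPKM in WT (log2 fold change -0.90 ± 0.11, limma adjusted p = 0.000244).

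The most abundant repressors fell too. IAA7 was at 257 and 227 FPKM in ubp12ubp13, against 460 and 431 FPKM in WT (log2 fold change -0.88 ± 0.07, limma adjusted p = 1.93e-05). IAA16 was at 250.1 and 251 FPKM in ubp12ubp13, against 354 and 357 FPKM in WT (log2 fold change -0.50 ± 0.04, limma adjusted p = 1.61e-05). IAA4 averaged 106 FPKM and IAA9 averaged 134 FPKM in ubp12ubp13, and 166 and 169 FPKM in WT, log2 fold changes of -0.64 ± 0.06 and -0.33 ± 0.04. IAA8, which is close to IAA9 in sequence and also abundant, went the other way, at 166 and 159 FPKM in ubp12ubp13, against 137 and 140 FPKM in WT (log2 fold change 0.23 ± 0.04, limma adjusted p = 0.00189).

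IAA34, a little-studied member without the canonical degron, was at 0.225 and 0.901 FPKM in ubp12ubp13, against 3.85 and 4.44 FPKM in WT (log2 fold change -1.75 ± 0.23, limma adjusted p = 0.000342). All 8 libraries of the other genotypes were at 2.60 FPKM or more. In ubp12ubp13 replicates 1 and 2, 3 fragments on 1 kb of transcript equal 0.119 and 0.19 FPKM. The IAA34 values there thus rest on few fragments, and the size of its fall is imprecise. IAA12 rose, with 36.2 and 34.0 FPKM in ubp12ubp13, against 25.6 and 26.8 FPKM in WT (log2 fold change 0.41 ± 0.05, limma adjusted p = 0.000339). IAA28, which represses lateral root formation, was at 44.4 and 47.6 FPKM in ubp12ubp13, against 39.4 and 32.7 FPKM in WT, and IAA33 was at 1.74 and 1.30 FPKM, against 0.709 and 0.312 FPKM in WT. Rescaling ended the call of IAA28 (limma adjusted p = 0.0585) and a pseudocount of 0.1 that of IAA33 (0.0685).

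Of the enzymes, GH3.5 fell to 31.7 and 31.8 FPKM in ubp12ubp13, against 48.3 and 45.0 FPKM in WT (log2 fold change -0.54 ± 0.05, limma adjusted p = 6.36e-05), and GH3.6 fell to 27.5 and 25.2 FPKM, against 39.6 and 36.2 FPKM in WT. GH3.3 rose, with 13.4 and 13.8 FPKM in ubp12ubp13, against 8.24 and 6.79 FPKM in WT (1.81-fold, log2 fold change 0.78 ± 0.12, limma adjusted p = 0.000734). Of the 22 calls, 16 held whichever 1 library was left out. IAA1, IAA17, IAA28, IAA29, IAA32 and IAA33 did not. IAA1 and IAA17 were lost without WT replicate 1, all of them but IAA17 without WT replicate 2, IAA1, IAA17, IAA28 and IAA32 without ubp12ubp13 replicate 2, and IAA32 and IAA33 without ubp12ubp13 replicate 1.

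**Figure D3:**
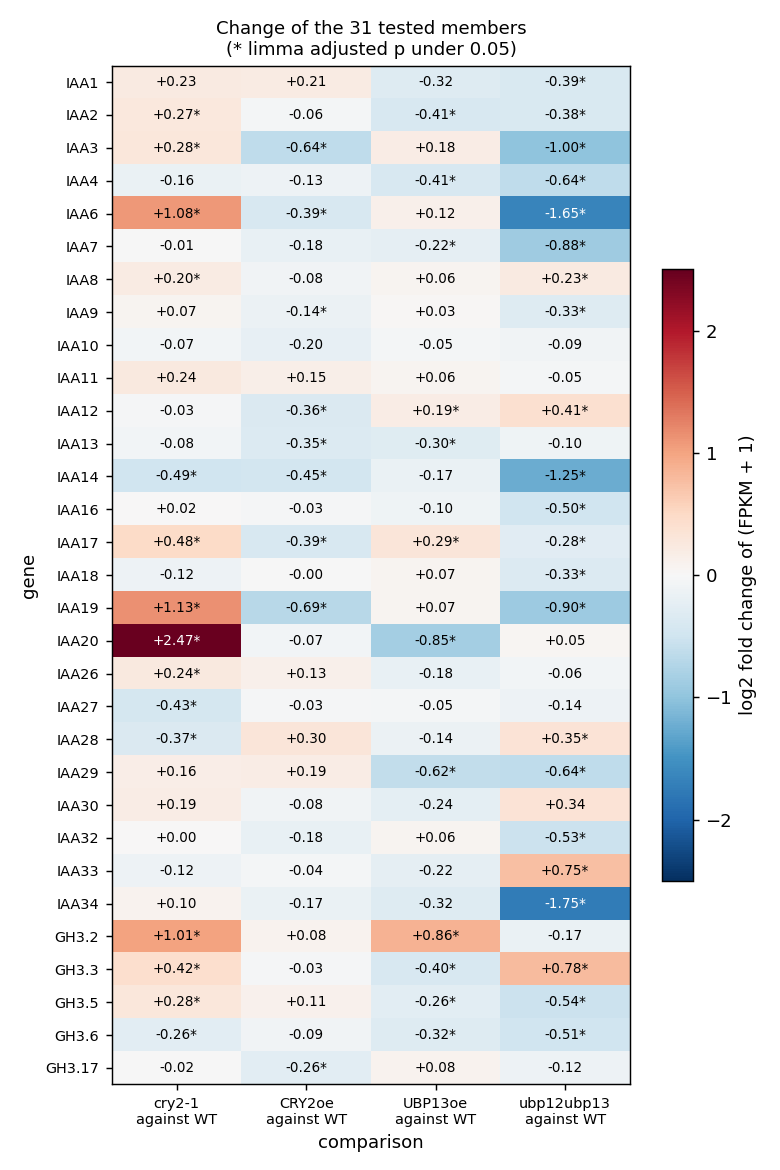
Log2 fold change of FPKM + 1 (colour scale and printed value) against WT for the 31 tested members (rows) in the 4 other genotypes (columns); a star marks a limma adjusted p under 0.05. The ubp12ubp13 column holds 17 starred falls, the CRY2oe column holds 9 falls and 0 rises, and the largest value is 2.47 for IAA20 in cry2-1.

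The GH3 enzymes did not move in one direction. GH3.2 stood at 19.2 ± 1.55 FPKM in cry2-1, 9.62 ± 0.12 FPKM in CRY2oe, 17.3 ± 1.91 FPKM in UBP13oe and 7.94 ± 0.19 FPKM in ubp12ubp13, against 9.04 ± 0.07 FPKM in WT (SD, n = 2 each). Its 4 libraries from cry2-1 and UBP13oe were all above 15 FPKM and the other 6 below 10 FPKM. GH3.3 was instead highest in ubp12ubp13, at 13.4 and 13.8 FPKM, and lowest in UBP13oe, at 6.27 and 4.71 FPKM, where it fell relative to WT (log2 fold change -0.40 ± 0.12, limma adjusted p = 0.0275), a call lost without WT replicate 1 or UBP13oe replicate 2.

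GH3.5 ran from 57.6 FPKM in cry2-1 replicate 2 down to 31.7 FPKM in ubp12ubp13 replicate 1. GH3.17 varied least among the tested enzymes, between 34.9 and 48.0 FPKM over the 10 libraries. GH3.1 was at 0.621 to 0.984 FPKM in cry2-1, CRY2oe and UBP13oe, 0.426 and 0.375 FPKM in ubp12ubp13, and 0.416 and 0.477 FPKM in WT, and was not tested. GH3.4 was listed at 0 in all 10 libraries.

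**Figure D4:**
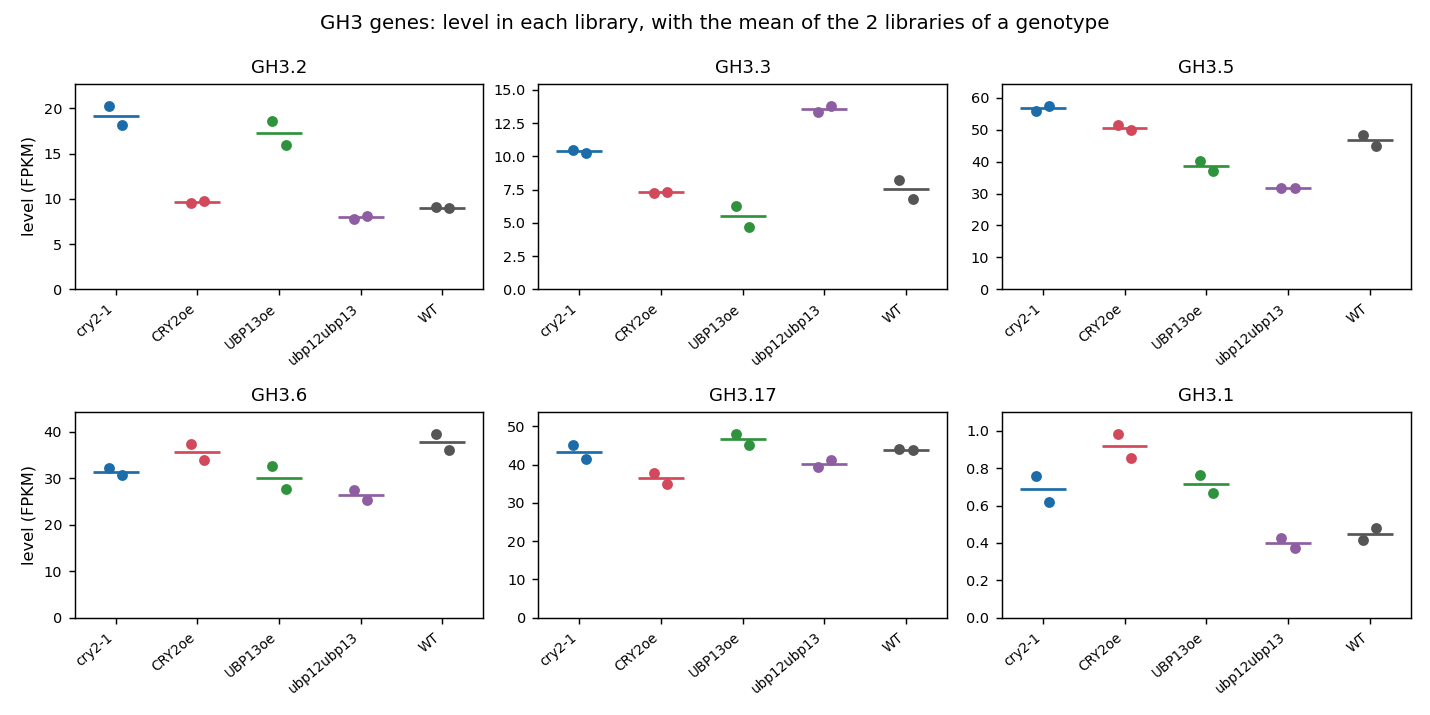
Level (FPKM, vertical axis) of 6 GH3 genes by genotype; each point is 1 library and the line is the mean of 2. GH3.2 is high in cry2-1 and UBP13oe, above 15 FPKM, and GH3.3 is highest in ubp12ubp13, at 13.4 and 13.8 FPKM.

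IAA10, IAA11 and IAA30 were called in none of the 4 comparisons with WT. IAA10 was between 3.9 and 5.2 FPKM, IAA11 between 9.33 and 12.7 FPKM and IAA30 between 1.44 and 3.09 FPKM over the 10 libraries. The remaining tested members were called in at least 1 of them. Without rescaling, IAA1, IAA16, IAA18, IAA32, IAA33 and IAA34 were called in ubp12ubp13 alone, IAA26 and IAA27 in cry2-1 alone and GH3.17 in CRY2oe alone. With rescaling this held for IAA32, IAA33 and IAA34: IAA1, IAA16 and IAA26 were then lower in UBP13oe (limma adjusted p = 0.0175, 0.00197 and 0.0112), IAA16 and IAA18 in cry2-1 (0.033 and 0.00471), and IAA27 and GH3.17 in ubp12ubp13 (0.0268 and 0.0175), while IAA26 was not called in cry2-1. Whether these genotypes differed from the others for those genes was tested only in the direct comparisons that follow.

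The contrast between gain and loss of CRY2 separated 16 of 31 members. In CRY2oe against cry2-1, 14 fell and 2 rose (limma), where 24.0% of all tested genes fell and 13.5% rose. The median log2 fold change was -0.18 over the members and -0.06 over all genes. After rescaling 11 fell and 3 rose, against 16.8% and 17.6% of all genes. IAA20 averaged 4.86 FPKM in CRY2oe and 33.2 FPKM in cry2-1 (log2 fold change -2.55 ± 0.09, limma adjusted p = 1.64e-06), and IAA19 averaged 26.5 FPKM in CRY2oe and 96.2 FPKM in cry2-1 (-1.82 ± 0.11, limma adjusted p = 1.32e-05). IAA6, IAA3, GH3.2 and IAA17 followed, with log2 fold changes of -1.47, -0.92, -0.93 and -0.87. IAA28, at 41.2 and 47.8 FPKM in CRY2oe, against 26.5 and 28.6 FPKM in cry2-1, and IAA27 rose.

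The libraries labelled ubp12ubp13 and those of UBP13oe differed in 23 of 31 members. In ubp12ubp13 against UBP13oe, 15 fell and 8 rose (limma), where 32.1% of all tested genes fell and 20.8% rose. The medians were -0.18 over the members and -0.06 over all genes. IAA6 averaged 2.51 FPKM in ubp12ubp13 and 10.9 FPKM in UBP13oe (log2 fold change -1.77 ± 0.09, limma adjusted p = 4.8e-06), IAA3 40.5 FPKM in ubp12ubp13 and 93.0 FPKM in UBP13oe (-1.18 ± 0.07), and GH3.2 7.94 FPKM in ubp12ubp13 and 17.3 FPKM in UBP13oe (-1.03 ± 0.08). GH3.3 rose, at 13.6 FPKM in ubp12ubp13 and 5.49 FPKM in UBP13oe (1.18 ± 0.12, limma adjusted p = 9.24e-05), as did IAA20, at 5.35 FPKM in ubp12ubp13 and 2.42 FPKM in UBP13oe (0.89 ± 0.09).

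These contrasts share no library. IAA6, IAA3, IAA19, IAA17 and GH3.2 fell in both, while IAA20 and GH3.3 fell in CRY2oe against cry2-1 and rose in ubp12ubp13 against UBP13oe. Across the 31 members Pearson's r between the log2 fold changes was 0.19 and Spearman's rho 0.13, and 17 members (54.8%) had the same sign. Across 19955 genes r was 0.23, rho was 0.26 and 59.1% had the same sign. These are correlations across genes, which are not independent replicates.

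**Figure D5:**
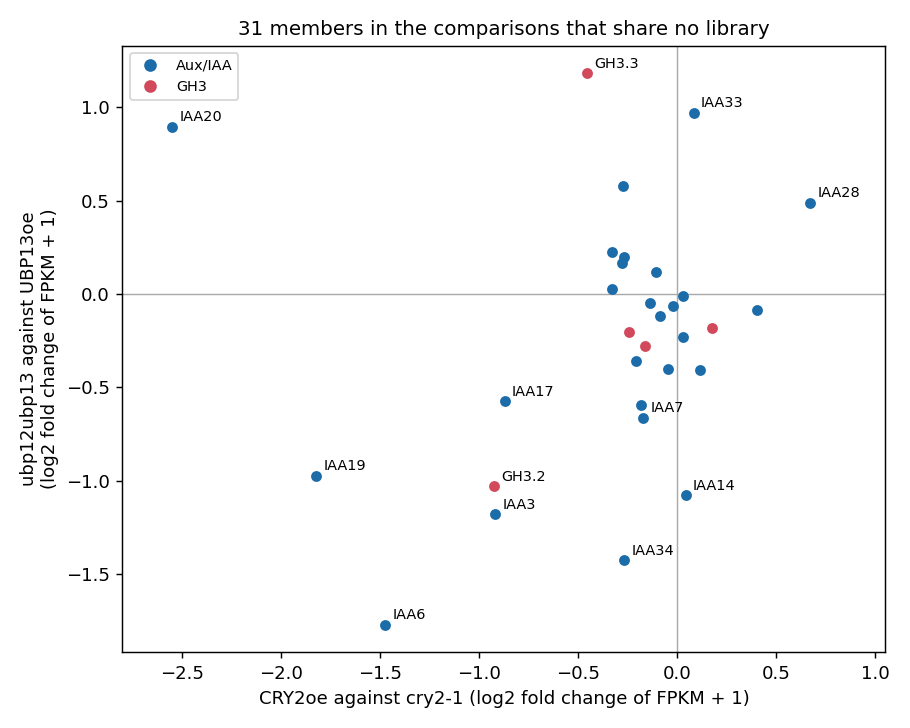
Log2 fold change of FPKM + 1 in CRY2oe against cry2-1 (horizontal axis) and in ubp12ubp13 against UBP13oe (vertical axis); each point is 1 of the 31 tested members. IAA6, IAA19, IAA3, IAA17 and GH3.2 lie in the lower left of the plot, where both values are negative, while IAA20 and GH3.3 lie in the upper left.

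UBP13oe was also compared with cry2-1, and ubp12ubp13 with CRY2oe. In UBP13oe against cry2-1, 12 of 31 members fell and 4 rose (limma), where 11.8% of all tested genes fell and 17.2% rose. IAA20 averaged 2.42 FPKM in UBP13oe and 33.2 FPKM in cry2-1 (log2 fold change -3.32 ± 0.09, limma adjusted p = 3.89e-07), the largest difference of any member in the 8 comparisons. IAA19 and IAA6 were at 0.473 and 0.492 times their cry2-1 level, with log2 fold changes of -1.06 ± 0.11 and -0.96 ± 0.09. GH3.2 was not called, at 17.3 ± 1.91 FPKM in UBP13oe and 19.2 ± 1.55 FPKM in cry2-1 (SD, n = 2 each). Without UBP13oe replicate 2 the count was 8.

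In ubp12ubp13 against CRY2oe, 15 of 31 members fell and 5 rose (limma), where 23.5% of all tested genes fell and 26.4% rose. IAA6 averaged 2.51 FPKM in ubp12ubp13 and 7.37 FPKM in CRY2oe (log2 fold change -1.26 ± 0.09, limma adjusted p = 2.01e-05), and IAA12 averaged 35.1 FPKM in ubp12ubp13 and 20.2 FPKM in CRY2oe (0.77 ± 0.05, limma adjusted p = 1.58e-05). IAA7, IAA16, IAA4, IAA14 and GH3.5 were also lower in ubp12ubp13, with log2 fold changes between -0.47 and -0.80. IAA19 and IAA17 were not called in this contrast.

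Position on the chromosome set some members apart. IAA17, IAA12, IAA3 and IAA10 lie 46.9, 51.9, 56.0 and 124 kb from CRY2 on chromosome 1. AT1G04410 and AT1G04420, at or near 0 in cry2-1 and CRY2oe, lie in the same region. In comparisons of these lines with the other genotypes, an effect of linkage to it cannot be told apart from one of CRY2. CRY2oe and cry2-1 share the loss at these loci. In CRY2oe against cry2-1, IAA17, IAA12 and IAA3 were called lower (limma adjusted p = 9.6e-05, 0.00203 and 4.01e-05), and IAA10 was not called. Whether both lines share the rest of the region was not tested. IAA3 and IAA17 are 6.71 kb apart and IAA14 and IAA1 11.04 kb apart, each with 0 loci between, and IAA2 and IAA7 are 12.9 kb apart with 1 locus between. Neighbours did not always move together: in ubp12ubp13, IAA3 fell by 1.0 and IAA17 by 0.28 on the log2 scale. IAA13 overlaps AT2G33300 by 1176 bases, a locus whose highest level was 1.06e-21 FPKM.

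Of the 6 TIR1/AFB receptors, all tested, 0 rose and 2 fell in CRY2oe, in UBP13oe and in ubp12ubp13, and 1 rose and 2 fell in cry2-1 (limma, each against WT). At an unadjusted p under 0.05, AFB1 was also higher in CRY2oe and 0 receptors were higher in UBP13oe or ubp12ubp13. With rescaling 1 rose and 3 fell in cry2-1, 0 rose and 2 fell in CRY2oe, and 0 rose and 3 fell in UBP13oe and in ubp12ubp13. TIR1 fell in each: it averaged 82.7 FPKM in cry2-1, 78.7 FPKM in CRY2oe, 80.0 FPKM in UBP13oe and 68.8 FPKM in ubp12ubp13, against 101 FPKM in WT, with log2 fold changes of -0.28, -0.35, -0.33 and -0.55 and limma adjusted p of 0.00275, 0.00267, 0.00151 and 4.66e-05. AFB5 fell in cry2-1, CRY2oe and ubp12ubp13, by 0.45, 0.35 and 0.33, and AFB1 rose in cry2-1 by 0.43. The 4 comparisons share the WT libraries. The shares of all genes called in them, given above, apply to this list and to those below.

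Of 23 ARF genes, the transcription factors that Aux/IAA proteins bind, 15 were tested. Against WT, 7 rose and 1 fell in cry2-1, 2 rose and 1 fell in CRY2oe, 5 rose and 1 fell in UBP13oe, and 6 rose and 3 fell in ubp12ubp13 (limma). With rescaling 4 rose and 3 fell both in cry2-1 and in UBP13oe, the CRY2oe counts were again 2 and 1, and in ubp12ubp13 3 rose and 5 fell, so that falls outnumbered rises there. The shares of all genes called are those given above. ARF5 (MONOPTEROS), which IAA12 represses, averaged 12.8 FPKM in ubp12ubp13 and 6.12 FPKM in WT (2.102-fold, log2 fold change 0.96 ± 0.06, limma adjusted p = 6.74e-06). ARF3 fell in cry2-1, at 11.5 FPKM against 17.8 FPKM in WT, and ARF11 rose, at 20.98 FPKM in cry2-1 against 12.6 FPKM in WT. ARF7 rose by 0.34 in cry2-1 and 0.39 in UBP13oe.

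Of 13 other genes of auxin inactivation and release, 11 were tested. Against WT, 5 rose and 0 fell in cry2-1 (0 also at an unadjusted p under 0.05), 2 rose and 1 fell in CRY2oe, 7 rose and 1 fell in UBP13oe, and 3 rose and 3 fell in ubp12ubp13 (limma). With rescaling cry2-1 had 1 rise and 0 falls, CRY2oe had 1 rise and 1 fall, UBP13oe had 4 rises and 2 falls and ubp12ubp13 had 2 rises and 3 falls, so the number of rises depended on the library scaling. DAO2, a relative of the auxin oxidase DAO1, averaged 32.6 FPKM in cry2-1, 15.0 FPKM in CRY2oe, 34.3 FPKM in UBP13oe and 13.2 FPKM in ubp12ubp13, against 25.7 FPKM in WT, with limma adjusted p of 0.00201, 0.000276, 0.000993 and 5.44e-06. It was thus higher in cry2-1 and UBP13oe and lower in CRY2oe and ubp12ubp13. ILL6, an amidohydrolase gene, fell in ubp12ubp13 by 0.53, and GH3.9 was at 2.05 FPKM in ubp12ubp13 and 0.475 FPKM in WT.

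Tissue markers also differed between the genotypes. The 5 endodermal genes CASP1 to CASP5 summed to 561 and 535 FPKM in cry2-1, 170 and 194 FPKM in CRY2oe, 406 and 374 FPKM in UBP13oe and 160 and 152 FPKM in ubp12ubp13, against 309 and 292 FPKM in WT. Of the 36 members, IAA3, IAA5, IAA6, IAA9 and IAA19 have the same order of genotype means (cry2-1, UBP13oe, WT, CRY2oe, ubp12ubp13, high to low). They were picked by this match, and parts of the order rest on means alone. IAA3, IAA6, IAA9 and IAA19 were not called in UBP13oe against WT. There IAA19 overlapped, at 47.5 and 43.6 FPKM in UBP13oe, against 46.0 and 40.7 FPKM in WT. IAA19 was also not called in ubp12ubp13 against CRY2oe. IAA5 was not tested, and the share of all genes with this order was not computed. All 15 root markers together ran from 582 to 606 FPKM in cry2-1, 220 to 245 FPKM in CRY2oe, 427 to 459 FPKM in UBP13oe and 215 to 226 FPKM in ubp12ubp13, against 333 to 357 FPKM in WT, and none was at 0 in any library. CASP genes made up most of each sum, which therefore largely repeats theirs: 561 of 606 FPKM in cry2-1 replicate 1. They made up 160 of 226 and 152 of 215 FPKM in ubp12ubp13, against 309 of 357 and 292 of 333 FPKM in WT. The rest of the sum, from the other root markers, was thus higher in ubp12ubp13 than in WT, unlike the CASP genes. Not all of the other root markers followed the CASP genes. In ubp12ubp13, 5 of all 15 fell and 7 rose, where 22.2% of all tested genes fell and 34.6% rose.

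The 7 green shoot markers summed to 8958 and 9320 FPKM in cry2-1, 14470 and 13980 FPKM in CRY2oe, 12020 and 11620 FPKM in UBP13oe, and 22340 and 20760 FPKM in ubp12ubp13, against 12170 and 11170 FPKM in WT, with CLV3 at 0 in cry2-1 replicate 1. Of them 1 rose and 3 fell in cry2-1, 3 rose and 0 fell in CRY2oe (0 also at an unadjusted p under 0.05), 1 rose and 1 fell in UBP13oe, and 5 rose and 1 fell in ubp12ubp13 (limma). The 5 seed markers were at 12.2 and 12.5 FPKM in cry2-1, 11.6 and 8.53 FPKM in CRY2oe, 6.29 and 5.65 FPKM in UBP13oe, and 15.2 and 26.8 FPKM in ubp12ubp13, against 22.5 and 15.8 FPKM in WT. The part of tissue proportions in the changes of the Aux/IAA and GH3 genes was not tested.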

How the data were processed

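Polyadenylated RNA of whole seedlings was sequenced in 10 libraries, 2 per genotype. The authors deposited 1 FPKM value per locus and library; per the submitters' processing notes STAR, Cufflinks 2.1.1 and the TAIR10 genome were used, with settings not given in the sources used here. FPKM carries no counts, so depth was estimated from the value that 1 fragment adds to 2919 genes without introns: 96.5% to 99.1% of 157 to 238 low values per library were whole within 0.1 fragments, and 3 fragments on 1 kb of transcript equal 0.0969 to 0.190 FPKM (counting error only). Estimates that Cufflinks marked as failed or skipped were treated as missing. The library kit keeps strand; whether counting used it is not stated.

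The 19957 genes that reached 1 FPKM in 2 libraries or more were tested as log2(FPKM + 1) with limma 3.58.1 (R 4.3.3; eBayes with trend, two-sided) over all 10 libraries, and Benjamini-Hochberg adjustment ran over all tested genes within each of 8 comparisons. A gene was called at an adjusted p under 0.05. The fit was also run on simulated data with 200 raised genes and no difference in library scale. Unlike in these data, few genes changed there, so this was not a test of calls that depend on scaling. The p-values measure the spread between replicates of 2, for which the labels say only that they are biological.

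Values per library were given for up to 8 called members per comparison with WT, those with the smallest adjusted p, at 5 FPKM or more in the higher mean and without overlap between genotypes; other members and genes were named after their values were seen, apart from up to 3 called genes of each other auxin list. The members, gene lists and tests were chosen with earlier results of these data known. Upstream sequences came from the RefSeq genome TAIR10.1, in which 10573 loci have the same start and end as in the files. The alternatives were rescaling by the median of ratios, a pseudocount of 0.1, no filter, a filter on a mean of 5 FPKM, a replicate block, a fit to just the 4 libraries of a comparison, no trend in the variance, and leaving out each library. Failed estimates taken as 0, and rescaling together with the block, were added after the data were seen.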

Additional observations from a re-analysis of the deposited data

How the results depend on the processing

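Over the 8 comparisons 133 calls of members were made. Of these, 120 were kept under rescaling, 130 with a pseudocount of 0.1, 126 without the filter, 124 with the filter on a mean of 5 FPKM (the other 9 concern genes below it), 116 with only the libraries compared, 126 without the variance trend and 133 with failed estimates as 0. Leaving out 1 library kept 116 to 123. In CRY2oe against WT, 4 members were called with only the libraries compared, and 3 to 9 with 1 library left out, fewest without CRY2oe replicate 2. In UBP13oe, without its replicate 2, calls numbered 5 against WT (range 5 to 13) and 8 against cry2-1 (range 8 to 16).

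Some directions turned. Rescaling gave IAA16 in cry2-1 against WT a log2 fold change of -0.14 (limma adjusted p = 0.033) and IAA9 in UBP13oe against WT one of -0.14 (adjusted p = 0.0238); neither had been called. IAA29 in ubp12ubp13 against UBP13oe, also not called, was at 0.29 without ubp12ubp13 replicate 2 and -0.31 without replicate 1. The cause was not tested.

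Correlations of same-numbered deviations ran from -0.088 to 0.146, so no strong shared deviation was seen. Whether same-numbered replicates were grown or prepared together is not in the labels. A replicate block kept 130 of the 133 calls and gave 15, 10, 13 and 23 called members in cry2-1, CRY2oe, UBP13oe and ubp12ubp13 against WT; rescaling with the block kept 119, with IAA16 and IAA9 again at -0.14. With 2 libraries a genotype and no counts, small changes of members below about 1 FPKM were not detectable.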
